A study of Mus musculus with 240 samples.

Results

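The retrogenes Eno1b, Amd2 and Hmga1b were described beside the genes they were copied from, Eno1, Amd1 and Hmga1. All 6 genes were chosen by name from the 55414 genes of the count table, with strain differences of these data already known, so that their strain levels are a description and carry no test. All 6 were among the 14785 genes that the authors kept for testing. For each pair the parent, the copy and their sum were followed over strains and regions, to see whether counts that leave one copy appear in the other.

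Poly(A) RNA was measured in 48 naïve mice, 3 females and 3 males of each of the 8 Collaborative Cross founder strains, at 8 weeks of age. The strains were the classical inbred C57BL/6J (B6), A/J (AJ), 129S1/SvImJ (S129), NOD and NZO/HILtJ (NZO), and the wild-derived WSB/EiJ (WSB), PWK/PhJ (PWK) and CAST/EiJ (CAST). The labels name no engineered allele and no agent for any group. From frozen brains of each mouse, punches were taken of prelimbic cortex (PrL), of the central amygdala (CeA) and of the core of the nucleus accumbens (NAcc). There were 6 libraries for each strain and region, and 5 for the NAcc of B6, where the authors left out 1 library. Within these inbred strains the mice are separate animals. Total counts per library ran from 14942820 to 33951616, with a median of 24456928. Values are counts per 1000000 counts of the library (CPM), adjusted by the trimmed mean of M-values. In 4 libraries, the NAcc of AJ mouse 21, the PrL of B6 mouse 33 and PWK mouse 40 and the CeA of WSB mouse 27, both a member and sums of cell type markers lay outside the other libraries of their group, and some of the results they enter are also given without them.

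A retrogene arises when a messenger RNA is reverse transcribed and inserted elsewhere in the genome, so that it lacks the introns and the promoter of its parent. Because the copy keeps the parent's messenger sequence, a short read can match both places equally well, and the STAR aligner enters a read into its gene counts only where it has 1 place. The authors aligned the reads of all 8 strains to the genome of B6. Eno1 encodes enolase 1, a glycolytic enzyme that turns 2-phosphoglycerate into phosphoenolpyruvate. Amd1 encodes S-adenosylmethionine decarboxylase, a rate-limiting enzyme of polyamine synthesis, and Hmga1 encodes an architectural chromatin protein that binds AT-rich DNA. Tissue punches are bulk samples, in which fewer cells of a type and less RNA per cell cannot be told apart.

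The pairs are nearly the same in sequence in the reference. Sequences came from GENCODE M21 transcripts on GRCm38, an older build than the GRCm39 build of the counts, and are those of B6 only. Eno1 (chr4:150236721-150248879, plus strand) has 12 exons in the transcript used and Eno1b has 2. Over 1702 aligned bases the pair differed at 22, of which 13 were in the 5′ untranslated region, 8 were coding and 1 was in the 3′ untranslated region, for an identity of 98.7% and of 99.4% in the coding part. Amd1 (chr10:40287458-40302186, minus strand) has 8 exons and Amd2 (chr10:35708675-35711892, minus strand) has 1, and the pair differed at 11 of 3201 aligned bases, an identity of 99.7%. Hmga1 (chr17:27556497-27563674, plus strand) has 5 exons and Hmga1b (chr11:120762794-120764419, plus strand) has 1. They differed at 3 of 1602 aligned bases, and the 321 coding bases were identical.

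The bases that separate a copy from its parent are few. Shown are 2 of the 11 differences of the Amd1 pair and all 3 of the Hmga1 pair. A read can be assigned where it, or the read from the other end of its fragment, covers such a base. Stretches that only 1 of the transcripts has, and exon junctions of the parent, can also separate parent from copy. How reads over junctions were assigned was not examined. Capitals mark the differing base, and positions count from 1 at the first base of the parent's transcript. The coding difference between Amd1 and Amd2 was G1124C, at the centre of chr10:40290172-40290200 in Amd1 and of chr10:35710750-35710778 in Amd2.
Amd1 coding: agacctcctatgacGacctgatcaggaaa
Amd2 coding: agacctcctatgacCacctgatcaggaaa
At its 3′ end (chr10:35708675-35708703, with C3199A as the first differing base) Amd2 runs on into a stretch of A where the transcript of Amd1 ends (chr10:40287458-40287477), the tail that a reverse-transcribed messenger RNA leaves in the genome. This end did not align without a gap, and only its first differing base is in capitals.
Amd1 end: taattgtctagtaaCattga
Amd2 end: taattgtctagtaaAaaaaaaaaaaaaaa
The 3 differences between Hmga1 and Hmga1b were A736G (chr17:27562715-27562743 and chr11:120763436-120763464), A863G (chr17:27562842-27562870 and chr11:120763563-120763591) and G1325T (chr17:27563304-27563332 and chr11:120764025-120764053), all in the 3′ untranslated region.
Hmga1 first site: ttagccgcagcccgAcctgctgcgcacct
Hmga1b first site: ttagccgcagcccgGcctgctgcgcacct
Hmga1 middle site: ccttaaggggccccAgccccatctcactc
Hmga1b middle site: ccttaaggggccccGgccccatctcactc
Hmga1 last site: ggttgtgttgttttGtttttgttccatgt
Hmga1b last site: ggttgtgttgttttTtttttgttccatgt

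By the sequence of the spliced transcripts alone, long stretches of each pair cannot separate parent from copy. Of all 100-base windows of the copy's transcript, 61.8% occurred unchanged in the parent for Eno1b, 72.9% for Amd2 and 78.8% for Hmga1b. Of the parent's windows, 58.6% occurred unchanged in the copy for Eno1, 73.2% for Amd1 and 76% for Hmga1. A window stands for a single read, whereas the paper reports paired-end reads, and both ends of a fragment together cover more bases. The part of fragments that cannot be assigned can thus be smaller than these shares, and was not measured. The longest identical run was 751 bases in the Eno1 pair, 930 in the Amd1 pair and 656 in the Hmga1 pair. Upstream of the start Amd2 and Hmga1b were unlike their parents: in the RefSeq promoter windows of GRCm38 (250 bases before the start), the longest run shared by Amd1 and Amd2 was 7 bases, and that shared by Hmga1 and Hmga1b was also 7. These are properties of the B6 reference, and the sequences of the other 7 strains were not analysed here.

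Eno1 was highest in B6 and lowest in CAST and PWK, whereas Eno1b was close to absent in B6 and present in all 7 other strains. In the PrL the 6 B6 libraries had between 902 and 1149 CPM of Eno1 with a median of 993, and the 42 libraries of the other strains had between 238 and 643. The 5 B6 libraries of the NAcc had 634, 674, 682, 722 and 808 CPM, and the other 42 lay between 226 and 454. B6 therefore lay above all other strains, without overlap, in both of these regions. In the CeA the B6 libraries ran from 613 to 810 CPM with a median of 714, and overlapped with NOD, which ran from 460 to 636.

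For Eno1b the B6 libraries held 2 to 16 counts in the CeA, 3 to 8 in the NAcc and 6 to 20 in the PrL, of which 1 library in each of the CeA and the NAcc was at or under 3 counts, the level taken here as the floor. Every library of the other strains held at least 1112 counts. In CPM the B6 libraries reached at most 1.15, and 0.75 without B6 mouse 33 in the PrL, and the others ran from 56.5 to 120. That value of 0.75 was the CeA of the same mouse 33, which also had the highest B6 value in the NAcc (0.459). Among the 7 other strains, the means were alike: 83.7 to 96.9 CPM in the CeA, 68.8 to 78.8 in the NAcc and 93.2 to 110 in the PrL, and none of them was separated from its neighbour in the order of means.

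**Figure D1:**
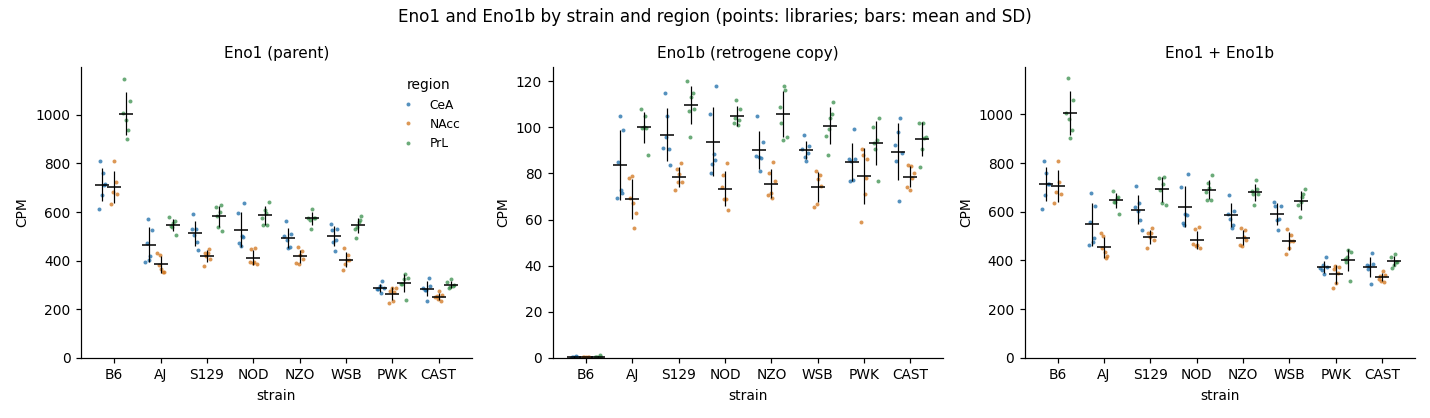
CPM of Eno1, of Eno1b and of their sum (y axes, from 0) for each strain (x axis), with 1 point per library coloured by region and bars for the mean and SD of 6 libraries (5 in the NAcc of B6). Eno1b in B6 lies near 0 while the other 7 strains lie between 56.5 and 120 CPM, and the sum keeps B6 on top and CAST and PWK at the bottom.

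The gain in Eno1b did not make up the lower Eno1 of the other strains. In the CeA, Eno1 in AJ lay below B6 (mean difference -249 CPM, SE 40.6), and Eno1b was higher by 83.4 (SE 6.2), which is 33.5% of the deficit. The share made up ran from 20 to 50.3% over the 7 strains in the CeA, from 17.3 to 27.4% in the NAcc and from 13.3 to 25.8% in the PrL, with CAST and PWK lowest in each region. The sum of the pair thus still differed: it was 713 ± 68.4 CPM (SD, n = 6) in B6, 621 ± 86 in NOD and 374 ± 41.6 in CAST in the CeA. In the PrL the sum was 1006 ± 88.8 CPM in B6, against 692 ± 50.5 in S129, the next strain, and the ranges did not overlap.

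As fitted log2 differences between B6 and the mean of the other 7 strains, Eno1 was higher by 0.75 (95% interval 0.61 to 0.88) in the CeA, 0.98 (0.87 to 1.09) in the NAcc and 1.08 (0.99 to 1.18) in the PrL. The difference in the sum was smaller, with 0.46 (0.33 to 0.60), 0.70 (0.58 to 0.81) and 0.80 (0.70 to 0.89). The fitted value of Eno1b itself was -8.23 in the CeA, and at counts this near the floor it depends on the prior count and is no measure of size.

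Counts of Amd2 were graded over strains rather than split into near 0 and high. Over all regions it ran from 0.0988 to 1.72 CPM in B6 and AJ (2 to 30 counts, and up to 0.845 CPM without B6 mouse 33 in the PrL), from 1.49 to 3.67 in NOD and NZO, from 4.7 to 8.14 in S129, from 8.54 to 12.9 in WSB and from 17.1 to 30.5 in CAST and PWK. In the CeA the order of means was CAST, PWK, WSB, S129, NOD, NZO, AJ and B6. The libraries of PWK lay above all of WSB, those of WSB above S129, those of S129 above NOD and those of NZO above AJ. CAST and PWK overlapped, as did NOD and NZO, and AJ and B6, and these neighbours are not separated by their spread. In the PrL, B6 overlapped with NOD only through mouse 33, which had 1.72 CPM where the lowest NOD library had 1.49.

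Amd1 had the opposite extreme strains. In the CeA it had means between 87.1 and 107 CPM in B6, AJ, NZO, NOD, S129 and WSB, and of 55.5 ± 3.11 in CAST and 54.6 ± 4.15 in PWK (SD, n = 6). Over all regions the CAST and PWK libraries ran from 47.3 to 65.2 CPM, and no library of the other 6 strains was below 78.9. In the order of Amd1 means, WSB and CAST were the only neighbours that did not overlap, in each region, while the copy had several levels in between. The other 6 strains did not share 1 level of Amd1: in the NAcc it ran from 85.5 to 101 CPM in WSB and from 104 to 121 in B6.

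**Figure D2:**
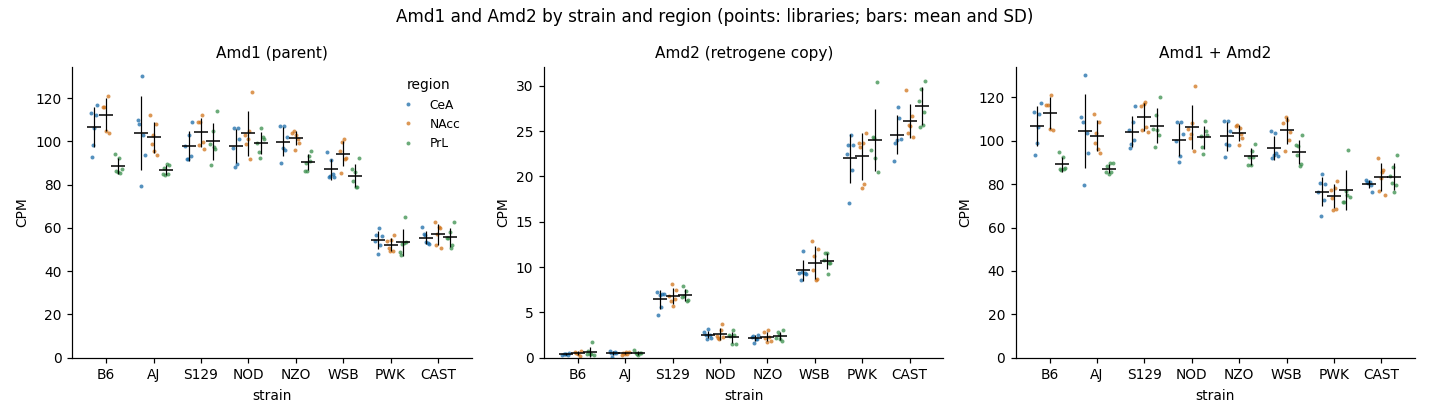
CPM of Amd1, of Amd2 and of their sum (y axes, from 0) for each strain (x axis), with 1 point per library coloured by region and bars for the mean and SD of 6 libraries (5 in the NAcc of B6). Amd2 steps up from B6 and AJ over NOD, NZO, S129 and WSB to PWK and CAST, while Amd1 is lowest in PWK and CAST, with a gap to the other strains.

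The sum of Amd1 and Amd2 varied less over strains than either gene. The SD of the 8 strain means on the log2 scale in the CeA was 0.4 for Amd1, 2.28 for Amd2 and 0.185 for the sum. In CAST the copy's gain over B6 made up 47.5, 46.2 and 82.7% of the parent's deficit for CeA, NAcc and PrL. In PWK it made up 41.6%, 36.1% and 66.6%. The summed level of CAST was 80.1 ± 1.98 CPM in the CeA against 107 ± 9.22 in B6, with ranges of 76.5 to 82.1 and 93.4 to 118. In the PrL, where B6 had only 89.2 ± 3.51, the CAST sum was 83.5 ± 6.19 and the ranges overlapped.

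WSB and S129 had intermediate counts of the copy. In the CeA, WSB had 9.62 ± 1.1 CPM of Amd2, and its Amd1 was below B6 (difference -19.4 CPM, SE 4.27), so that the copy made up 47.5% of the deficit. S129 had 6.44 ± 1.03 CPM of Amd2, and its Amd1 differed from B6 by -8.77 CPM (SE 4.73). In the PrL the Amd1 of S129 was above that of B6, by 11.5 CPM (SE 3.77), with the copy higher as well by 6.22 (SE 0.342). In that region both members were also above B6 in NOD, by 10.7 CPM (SE 2.52) and 1.59 (SE 0.331). A higher copy did not come with a lower parent there.

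Hmga1 and Hmga1b came closest to an exchange. B6, NOD and NZO had high Hmga1 and almost no counts of Hmga1b, whereas AJ, S129, WSB, PWK and CAST had counts well above the floor for both. In the 53 libraries of B6, NOD and NZO, Hmga1b had between 0 and 9 counts, at most 0.422 CPM, and 3 or 4 libraries of each group of strain and region were at or under the floor of 3 counts. In the 72 libraries of AJ, WSB, CAST and PWK it ran from 14.6 to 39.1 CPM, and in the 18 of S129 from 11.5 to 22.6. Of the 5 strains AJ, S129, WSB, PWK and CAST, S129 had the lowest Hmga1b in each region. In the CeA and the PrL its libraries lay below all of those of the next strain.

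For Hmga1 itself, the CeA libraries ran from 31.6 to 39.7 CPM in B6 with a median of 36.2, from 32.5 to 45.9 in NOD with a median of 36.3 and from 31.9 to 38.7 in NZO with a median of 33.1. These 3 strains overlapped with each other. The other 5 strains had means of 11.8 to 14.5 CPM, and none of their libraries reached those of B6, NOD and NZO. Also in the PrL the lowest library of B6, NOD and NZO had 30.5 CPM, and the highest of the others had 16.2. In the NAcc the sets met, with 24.7 CPM in the lowest NOD library and 26.1 in the highest PWK library.

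**Figure D3:**
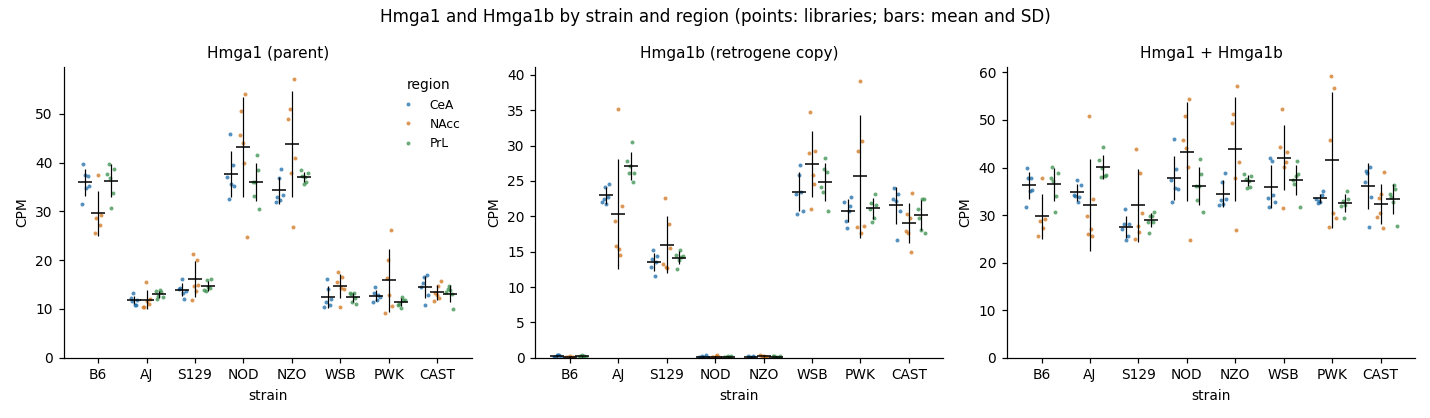
CPM of Hmga1, of Hmga1b and of their sum (y axes, from 0) for each strain (x axis), with 1 point per library coloured by region and bars for the mean and SD of 6 libraries (5 in the NAcc of B6). Strains high in Hmga1 (B6, NOD and NZO) have Hmga1b at or near 0, and the sums of all 8 strains lie side by side, with the widest scatter in the NAcc.

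The sum of the pair was nearly level over strains. In the CeA the strain means of the sum ran from 27.5 CPM in S129 to 37.8 in NOD, a ratio of 1.37, whereas Hmga1 alone had a ratio of 3.19 between the highest and the lowest strain. The gain of Hmga1b over B6 was 93.9% of the deficit of Hmga1 in AJ, 98.8% in WSB, 88.3% in PWK and 99.3% in CAST in the CeA. The sum of CAST differed from that of B6 by -0.148 CPM (SE 2.28) and that of WSB by -0.273 (SE 2.19), both less than the error. In the PrL the same 4 strains ran from 84.2% in PWK to 116% in AJ. S129 was the exception in both regions, where the copy made up 60.5% in the CeA and 65.1% in the PrL. The S129 sum differed from that of B6 by -8.71 CPM (SE 1.49) in the CeA, with 24.7 to 31.3 CPM in S129 and 31.7 to 39.9 in B6.

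In the NAcc the pair was more variable. Hmga1 ran from 24.7 to 54 CPM in NOD and from 26.7 to 57.1 in NZO, and in PWK from 9.09 to 26.1. The 5 B6 libraries had 25.5, 27.3, 28.7, 29.2 and 37.5 CPM. The B6 library that the authors left out had 60.3 CPM, higher than any library used, so that the log2 difference of B6 from the mean of the others was 0.61 (0.31 to 0.91) without it and 0.77 with it. The mean sum of B6 was 29.7 ± 4.67 CPM (SD, n = 5) without that library and 34.9 ± 13.3 (n = 6) with it. The copy's gain over B6 as a part of the parent's deficit moved with it, from 113 to 87.8% in AJ, from 117 to 84.9% in S129, from 116 to 88.3% in CAST, from 183 to 136% in WSB and from 185 to 135% in PWK. Without AJ mouse 21 the value of AJ was 92.6%. Whether the copy made up the whole deficit in the NAcc thus depended on single libraries in AJ, S129 and CAST.

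The copy's share of the counts of its pair separated the strains and varied little between regions. A share is of counts and not per length, but the transcripts of a pair are close in length: 2027 and 1791 bases for Eno1 and Eno1b, 3204 and 3218 for Amd1 and Amd2, and 1681 and 1626 for Hmga1 and Hmga1b. Since only reads with 1 place are counted, a share also depends on where parent and copy differ, and is not a share of RNA. The Eno1b share was 0.0117 to 0.122% in the 17 B6 libraries, 13.8 to 17.1% in the 90 libraries of AJ, S129, NOD, NZO and WSB, and 20.7 to 26% in the 36 of CAST and PWK. The 3 regional means of a strain lay within 0.575 percentage points of each other, the widest being PWK (0.363 without mouse 40 in the PrL). The higher share in CAST and PWK came with a lower Eno1, since their Eno1b was at the level of the other strains.

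The Amd2 share was 0.124 to 1.98% in B6 and AJ (up to 0.988% without B6 mouse 33 in the PrL), 1.54 to 3.85% in NOD and NZO, 4.86 to 8.19% in S129, 7.85 to 12.5% in WSB and 26.3 to 34.2% in CAST and PWK. The Hmga1b share was at most 1.12% in B6, NOD and NZO, 46.4 to 52.9% in S129 and 54 to 69.8% in AJ, WSB, CAST and PWK. The regional means of a strain lay within 2.53 percentage points of each other for Amd2 (CAST) and within 5.44 for Hmga1b (AJ, and 6.88 without AJ mouse 21 in the NAcc), the widest of each. Shares of 0 occurred only for Hmga1b in B6, NOD and NZO, and are limited by counting. The SD of the share between mice was a median of 1.91 times the SD that counting alone gives for Eno1b, 1.38 times for Amd2 and 1.26 times for Hmga1b, over 24 groups of strain and region each. Counting error alone covers neither mouse nor library differences.

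**Figure D4:**
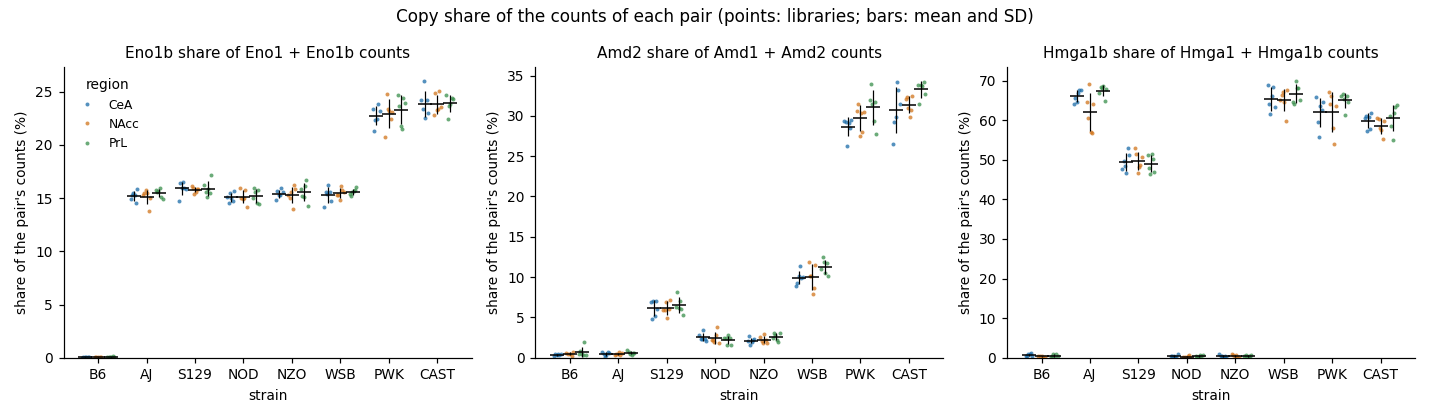
Share of the pair's counts that fell on the copy, in % (y axes, from 0), for each strain (x axis), with 1 point per library coloured by region and bars for the mean and SD. The Eno1b share has 3 levels (near 0 in B6, 13.8 to 17.1% in 5 strains, 20.7 to 26% in PWK and CAST), the Amd2 share is graded, and the 3 regions of a strain lie side by side.

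Differences between regions did not choose the genes and were tested, with limma-voom in 1 model over all libraries, averaged over the 8 strains, and with Benjamini-Hochberg adjustment over all genes and the 3 contrasts. Most genes differ between these regions: of 14785 genes, 82.4% passed the threshold of 0.05 between PrL and NAcc, 73.9% between PrL and CeA and 69.1% between CeA and NAcc. Of the 6 members, 3 passed in each contrast.

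Both Eno1 and Eno1b were highest in the PrL and lowest in the NAcc, by nearly the same amount. Eno1 had mean levels over strains of 556, 473 and 407 CPM in the PrL, CeA and NAcc. Its log2 difference was 0.42 (95% interval 0.37 to 0.47, limma-voom adjusted p = 3.26e-32) between PrL and NAcc, and PrL exceeded NAcc in 46 of 47 mice. Eno1b differed by 0.48 (0.34 to 0.61, adjusted p = 4.83e-10) in the same contrast, in 45 of 47 mice, an average that takes in the few counts of B6. Between PrL and CeA the differences were 0.20 (0.15 to 0.25) for Eno1 and 0.24 (0.12 to 0.36) for Eno1b, and between CeA and NAcc 0.22 (0.17 to 0.27) and 0.24 (0.094 to 0.38), all past the threshold. Within each of the 3 sequencing trays the difference between PrL and NAcc was 0.40, 0.45 and 0.41 for Eno1 and 0.42, 0.59 and 0.38 for Eno1b.

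Amd1 had a small difference in the other direction. It fell by 0.13 on the log2 scale from NAcc to PrL (PrL minus NAcc -0.13, -0.17 to -0.084, adjusted p = 2.07e-07, lower in 38 of 47 mice) and was lower in the PrL than in the CeA by 0.086 (difference -0.086, -0.13 to -0.041, adjusted p = 0.000392, lower in 33 of 48 mice). Within trays the first difference was -0.097, -0.097 and -0.19, and the second -0.096, 0.0027 and -0.16, so that the second was not present in tray 2. CeA minus NAcc was -0.044 (adjusted p = 0.0729). Amd2 passed in no contrast, and its difference of 0.15 between PrL and CeA (0.0068 to 0.29) had an adjusted p of 0.0531 in limma-voom and of 0.0478 with mouse as a replicate block. Without the 4 libraries named above it was 0.10 (adjusted p = 0.153). By trays it was -0.02, 0.42 and 0.018, and thus rested on tray 2.

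Hmga1 was lower in the CeA than in the NAcc by 0.10 (difference -0.10, -0.19 to -0.0072, limma-voom adjusted p = 0.0468), in 29 of 47 mice, and the values within trays were -0.21, -0.042 and -0.018. Without B6 mouse 25 in the NAcc, the adjusted p was 0.0813, and without the 4 libraries named above it was 0.0542. PrL minus NAcc was -0.095 (adjusted p = 0.0647) and PrL minus CeA was 0.0048 (adjusted p = 0.931). Hmga1b passed in no contrast, and its intervals, such as -0.23 to 0.44 between PrL and NAcc, were wide enough to hold the differences of Hmga1.

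**Figure D5:**
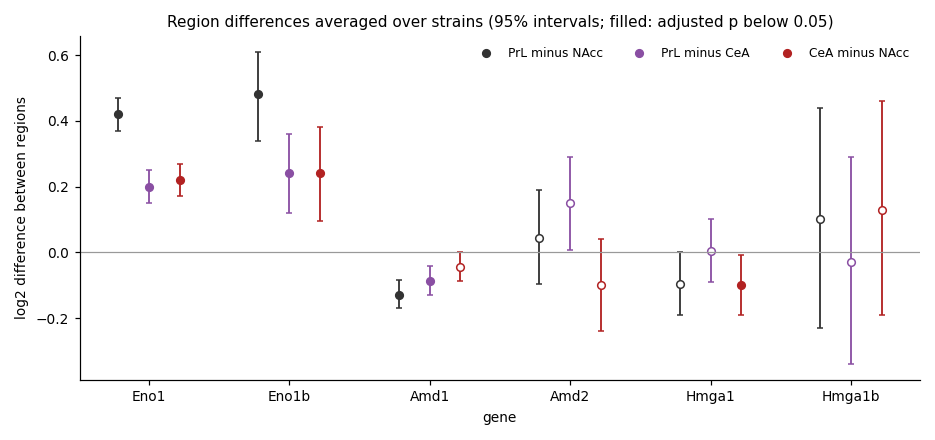
Log2 difference between regions, averaged over strains (y axis), for the 6 genes (x axis), with 95% intervals from limma-voom over all libraries and 1 colour per contrast. Filled points passed an adjusted p of 0.05: all 3 contrasts of Eno1 and Eno1b lie above 0, and those of Hmga1b, with the widest intervals, all cross 0.

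Other tissue in the punches moved with region and is given beside these differences. The summed CPM of 5 oligodendrocyte markers ran from 1264 to 18545 in the CeA, 2572 to 18581 in the NAcc and 762 to 5621 in the PrL. The summed level of 6 striatal neuron markers had medians of 827, 2878 and 144 in the same order and reached 6157, 5957 and 1604, and that of 5 cortical glutamatergic markers from 20.1 to 2494, 2.24 to 1386 and 1771 to 3174. Astrocyte markers ran from 966 to 1910, 844 to 1683 and 928 to 1673, and microglia markers from 195 to 371, 193 to 568 and 189 to 377. The sum of 5 central amygdala markers ran from 240 to 635 in the CeA, 299 to 663 in the NAcc and 192 to 392 in the PrL. Of these markers Prkcd and Sst had higher means in the CeA (47.4 and 310 CPM) than in the NAcc (21.8 and 202), whereas Dlk1 (58.6 and 191), Tac2 (32 and 41.7) and Crh (4.87 and 7.68) had lower ones. Choroid plexus markers ran from 2.34 to 9212 in the CeA, 1.4 to 17.3 in the NAcc and 0.623 to 8.33 in the PrL, and diencephalic markers from 24.7 to 223, 14 to 387 and 13.3 to 216. Neurod2 and Neurod6, among the cortical markers, reached 0 in the NAcc. The part of these tissues in the differences between regions was not tested.

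Whether the strain pattern differed between regions was tested as a strain-by-region interaction. Of all genes, 34.6% passed, and of the 6 members the 3 parents passed (limma-voom adjusted p = 0.00743 for Eno1, 0.0132 for Amd1 and 0.0247 for Hmga1), whereas the 3 copies did not (0.995 for Amd2, 1 for Eno1b and 0.899 for Hmga1b). The copies rest on low counts in part of the strains, and the difference between parents and copies in this respect was not tested.

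For Eno1, the PrL level was 1.43 times the NAcc level in B6, 1.42 in AJ, 1.39 in S129, 1.43 in NOD, 1.37 in NZO and 1.35 in WSB, but 1.17 in PWK and 1.2 in CAST. Between CeA and NAcc the ratio was 1.01 in B6 and 1.1 to 1.28 in the other strains. Eno1b followed the same profile in each strain other than B6: the ratio of PrL to NAcc was 1.46 in AJ, 1.4 in S129, 1.43 in NOD, 1.4 in NZO, 1.36 in WSB, 1.18 in PWK and 1.21 in CAST. In these 7 strains parent and copy thus had nearly the same ratio between regions, strain by strain.

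For Amd1 the PrL level was 0.787 times the NAcc level in B6 and 0.851 in AJ, and between 0.893 and 1.02 in the other strains. For Hmga1 the ratio of PrL to NAcc was 1.22 in B6 and 1.1 in AJ, and between 0.717 and 0.983 in the others. The call of the interaction of Hmga1 depended on which B6 libraries of the NAcc were used. Its limma-voom adjusted p was 0.218 with the left-out library, 0.0548 without mouse 9 and 0.0558 without mouse 17, but 0.00959, 0.0452 and 0.0384 without mouse 25, 33 or 41. Mice of other groups were not left out in turn. The median of the summed oligodendrocyte markers in the NAcc was 10155 CPM in B6, the highest strain, 10134 in NOD and 3920 in CAST, the lowest. In the CeA it was 8484 in B6 and 3238 in CAST. Cortical glutamatergic markers had a median of 146 CPM in the NAcc of B6 and of 10.9 to 29.2 in the other strains. Their CeA medians ran from 546 in B6 to 1715 in WSB. Striatal neuron markers had medians from 1785 (NOD) to 4589 CPM (B6) in the NAcc and from 349 (NOD) to 3396 (AJ) in the CeA. The part of these markers in the interactions was not tested.

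No member passed the test between the sexes. Among all genes, 0.129% passed between males and females for the CeA, 0.0812% for the NAcc and 0.0947% for the PrL. Of the 18 tests of members none passed with limma-voom, and none with edgeR or DESeq2. At an unadjusted p under 0.05 there was 1, that of Hmga1 in the CeA, higher in males by 0.13 (0.053 to 0.21, limma-voom adjusted p = 0.413).

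Other genes of the members' pathways were compared between B6 and the mean of the other 7 strains. B6 is the strain with the fewest counts of Eno1b, and B6 and AJ had the fewest of Amd2. Of all genes, 21.2% were higher and 17.6% lower in B6 in the CeA, 18.4% and 15.6% in the NAcc, and 18.9% and 19.2% in the PrL.

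Of 17 glycolysis genes 16 were tested, Gapdh not being among the genes kept. In the CeA 3 were higher and 6 lower in B6, with a median log2 difference of -0.12 (0.0085 over all genes), in the NAcc 3 and 2 with a median of -0.038 (0.0096 over all genes), and in the PrL 3 and 2 with a median of 0.026 (-0.00073 over all genes). Hexokinase Hk1 (-0.37) and phosphofructokinase Pfkl (-0.37) were lower in the CeA, and lactate dehydrogenase Ldhb (0.31) and aldolase Aldoc (0.28) were higher. In the NAcc, Pfkp (0.32), Ldha (0.27) and Ldhb (0.21) were higher and the muscle enolase Eno3 (-0.38) lower. In the PrL, Pkm, pyruvate kinase (0.17), and Pfkp (0.13) were higher, and hexokinase Hk2 (-0.42) and the neuronal enolase Eno2 (-0.14) lower. In the same contrasts the difference was 0.75 to 1.08 for Eno1 and 0.46 to 0.80 for the sum of the pair. Eno1 was chosen with strain differences known, so that its size beside the genes named here is no finding. In the NAcc the number past the threshold was 2 without B6 mouse 17 or B6 mouse 33 and 3 without B6 mouse 9.

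All 17 genes of polyamine and methionine metabolism were tested. In the CeA 4 were higher and 3 lower in B6 (median -0.034), in the NAcc 4 and 2 (median 0.015) and in the PrL 2 and 4 (median -0.038). Odc1, ornithine decarboxylase, the other rate-limiting enzyme of polyamine synthesis, was higher by 0.69 (SE 0.0527) in the CeA and 0.53 (SE 0.0415) in the PrL. Ahcy, which breaks down S-adenosylhomocysteine, was higher in all regions, by 0.56, 0.51 and 0.70 in the order CeA, NAcc, PrL. Mtap (0.35), of methionine salvage, was higher in the CeA and Dohh (-0.40), of hypusine synthesis, lower. Arg2 (0.93), an arginase, and Mat2b (0.35) were higher in the NAcc and Smox, spermine oxidase (-0.39), lower. Azin2 (-0.32) and the polyamine oxidase Paox (-0.19) were lower in the PrL. In the NAcc the number past the threshold was 3 with the left-out B6 library, and 3 without B6 mouse 33. In the PrL it was 4 without the 4 libraries named above.

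Of 10 genes of high mobility group proteins, the wider class of Hmga1, 9 were tested, Hmga2 not being among the genes kept. In B6, 5 were higher in the CeA, the NAcc had 2 and the PrL 4, and none was lower, with medians of 0.23, 0.16 and 0.17. Hmgn2, a nucleosome-binding protein, was higher by 1.19, 1.16 and 1.17 in the same order. Hmgb2 (0.73 in the CeA, 0.57 in the PrL) and Hmgb1 (0.34 in the NAcc, 0.36 in the PrL), both DNA-bending proteins, were higher too, as were Hmg20b (0.25) and Hmgn1 (0.23) in the CeA and Hmgb3 (0.25) in the PrL. Without the 4 libraries named above the number past the threshold in the PrL was 3. Hmgb1 and Hmgn2 also have processed pseudogenes in the mouse genome, so that their counts are uncertain as well. Whether the other genes named from the lists above have such copies was not examined.

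The same genes were compared in NOD, 1 of the 3 strains with almost no counts of Hmga1b. Of all genes, 14.2% were higher and 13.3% lower in NOD in the CeA, 13.5% and 9.61% in the NAcc, and 15.1% and 12.2% in the PrL. Of the 9 high mobility group genes, 1 was higher and 3 lower in the CeA, the NAcc had 1 and 2, and the PrL 1 and 3, with medians of -0.027, -0.018 and -0.097 (0.0033, 0.0063 and 0.0062 over all genes). Hmgn2 was lower by 0.68 in the CeA (difference -0.68), and also in the NAcc (-0.41) and the PrL (-0.52). Hmgb1 was higher in NOD by 0.25, 0.15 and 0.08 in the 3 regions. Hmgb2 (-0.55) and Hmgn1 (-0.29) were lower in the CeA, Hmgn1 (-0.21) in the NAcc, and Hmgb3 (-0.26) and Hmgn3 (-0.10) in the PrL. B6 and NOD thus had Hmgn2 on opposite sides of the mean.

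The genes most like each member were those with the highest positive Pearson's r over the 24 means of strain and region of log2 CPM. This is a description with no test, since the points share mice and strains. For Eno1b these were Gm5801 (0.994), Gm6969 (0.991) and Gm11868 (0.987), all annotated as processed pseudogenes and, like Eno1b, lowest in B6. Eno1b had a mean log2 CPM of -1.26 in B6 and 6.55 in S129, its highest strain, so that the B6 means near the floor weigh heavily in r. Gm5801 was highest in PWK, Gm6969 in CAST and Gm11868 in AJ. The genes nearest to Amd2 were Gm13453 (0.908), Gm14150 (0.901) and Gm6334 (0.899), also processed pseudogenes, highest in CAST and lowest in AJ. For Hmga1b they were Rps3a2 (0.981) and Gm6166 (0.834), processed pseudogenes, and the protein-coding Trappc2l (0.861).

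The parents were nearest to genes of other kinds. For Hmga1 these were Rps3a1 (0.928), which encodes ribosomal protein S3A, Ginm1 (0.899) and the non-coding Zfas1 (0.896). For Amd1 they were the antisense gene Gm16638 (0.975), Rad9b (0.966) and Nudt1 (0.963), and for Eno1 they were Llph (0.878), the non-coding 2210406O10Rik (0.877) and Angptl2 (0.875), the last 3 highest in B6 and lowest in CAST, as Eno1 was. Over the same 24 means, r between parent and copy was -0.593 for Eno1 and Eno1b, -0.766 for Amd1 and Amd2 and -0.978 for Hmga1 and Hmga1b. Since the 3 nearest genes were those with the highest r, a parent and copy with a negative r could not appear among them.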

How the data were processed

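Stranded poly(A) libraries were aligned by the authors with STAR 2.7.3a to GRCm39 (Ensembl annotation), and the deposited counts are whole reads per gene, not normalized. The authors' deposited log2 values gave the 14785 genes and the libraries used. Log2 CPM recomputed from the counts matched them within 5e-06. Here TMM factors, voom (prior count 0.5) and linear models with strain, sex and tray were fitted (R 4.3.3, limma 3.58.1, edgeR 4.0.16), by region or, for region and interaction tests, in 1 model of strain-by-region means. Adjustment was by Benjamini-Hochberg, with a threshold of 0.05. Pair sums were added as rows to the fits. The log2 CPM used for likeness had a prior count of 2. The members and lists were chosen with earlier results of these data known. Other genes are named where they passed (at most 4 per list and contrast, by size) or were among the 3 nearest to a member. The pairing by mouse comes from the labels, which give 1 animal number for its 3 regions. The correlation within mice was 0.0476. As alternatives, DESeq2 1.42.0 and the quasi-likelihood test of edgeR were run, and filters, normalization, libraries and runs were varied. Scripts were tested on simulated data. The depth of each library (14942820 to 33951616 counts) limits the copies where they are near 0. Series notes and the study differ slightly on age, and the former is given. The sequence of Eno1b and the level of 1 marker gene are not reported here.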

Additional observations from a re-analysis of the deposited data

Results flagged for a closer look

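Of 216 groups of strain, region and gene or sum, 9 held a library whose gap to the nearest other was wider than Dixon's 95% critical value, where chance alone flags about 1 in 20 groups.

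Mouse 21 of AJ had the highest Hmga1 (15.6 CPM, against 10.3 to 12 in the other 5 libraries), Hmga1b (35.2, against 14.6 to 21.4) and sum of the pair (50.8, against 25.7 to 33.3) in the NAcc. In the same library the oligodendrocyte markers summed to 18581 CPM (5707 to 8626 in the others), and striatal neuron markers to 1868 (3563 to 4394), and their part was not tested.

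Mouse 40 of PWK had the highest Amd1 (65.2 CPM, against 47.3 to 53.4) and sum of Amd1 and Amd2 (95.6, against 71.6 to 76.9), and the lowest sum of Eno1 and Eno1b (315, against 395 to 440), in the PrL. Striatal neuron markers summed to 1604 CPM there and to 91.5 to 155 in the other 5, and their part was not tested.

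Mouse 33 of B6 had the highest Eno1b (1.15 CPM or 20 counts, against 0.275 to 0.426) and the highest Amd2 (1.72 CPM or 30 counts, against 0.303 to 0.767) in the PrL. Its Hmga1b, at 5 counts, was within the range of the other B6 libraries. Oligodendrocyte markers summed to 5280 CPM there (1801 to 3845 in the others), and their part was not tested. In the other regions of this mouse Eno1b was also the highest of B6 (16 counts in the CeA and 8 in the NAcc). Its Amd2 was not (7 and 4 counts). Mouse 27 of WSB had the highest Amd2 in the CeA (11.8 CPM, against 8.54 to 9.51). Striatal neuron markers summed to 1546 CPM there (196 to 725 in the others) and cortical glutamatergic markers to 573 (1586 to 2012), and their part was not tested.

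The strain pattern differed between regions by the interaction test of limma-voom for Eno1 (adjusted p = 0.00743), Amd1 (adjusted p = 0.0132) and Hmga1 (adjusted p = 0.0247). Over the alternatives run, the adjusted p ranged from 0.000844 to 0.0145 for Eno1, from 0.0013 to 0.0226 for Amd1 and from 0.00431 to 0.218 for Hmga1.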

How the results depend on the processing

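The 3 region differences of Eno1 and of Eno1b, both differences of Amd1 with the PrL, and the interactions of Eno1 and Amd1 kept their direction and side of the threshold under all alternatives run. Mouse as a replicate block changed 1 call, that of Amd2 between PrL and CeA (adjusted p = 0.0478), and no other. That difference (0.15) also passed with edgeR (0.16), DESeq2 (0.17), all genes (0.16) and DESeq2 size factors (0.15). Amd1 between CeA and NAcc passed with a mean CPM of at least 5 (-0.058). Hmga1 between CeA and NAcc did not pass with all genes (-0.10), the other run (-0.082), both runs summed (-0.069) and no tray term (-0.097). Nor did it pass without the 4 libraries named above (-0.099), an alternative chosen after seeing the data. It ranged from -0.11 to -0.088 with each B6 NAcc mouse left out. Hmga1 between PrL and NAcc passed with edgeR (-0.12), DESeq2 (-0.11), a mean CPM of at least 5 (-0.10) and 144 libraries (-0.11). The interaction of Hmga1 had an adjusted p of 0.218 with 144 libraries and of 0.00959 to 0.0558 with B6 NAcc mice left out. The causes were not tested.

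Differences near 0 changed sign without passing. They were PrL minus NAcc of Amd2 (-0.023 with the other run, -0.004 without the 4 libraries), PrL minus CeA of Hmga1 (-0.0011 with edgeR, -0.0062 with the other run, -0.012 with runs summed) and of Hmga1b (0.056 and 0.036 with the other and summed runs). For sex they were Amd2 in the NAcc (0.0011 with a mean CPM of at least 5, and -0.0046 to 0.0032 with B6 mice left out) and the PrL (-0.029 with the other run), Eno1 in the CeA (-0.0058) and PrL (0.0014) with all genes and in the PrL (0.014) without the 4 libraries, Eno1b in the CeA (-0.00092 with the other run) and PrL (-0.026 and -0.0097 with the other and summed runs), and Hmga1b in the NAcc (4.3e-06 with edgeR, 0.036 and 0.017 with the other and summed runs).

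Glycolysis genes past the threshold in the NAcc of B6 (5) were 3 with the other run, with both runs summed and with no tray term, and 2 to 4 with mice left out (2 without mouse 17 or 33, 3 without mouse 9). Polyamine genes there (6) were 3 with 144 libraries and 3 to 6 with mice left out (3 without mouse 33). High mobility group genes in the CeA of B6 (5) were 3 with all genes. The log2 difference of B6 moved with the other run for Eno1b in the CeA (-7.64) and NAcc (-7.75, and -7.88 with runs summed) and for Amd2 in the CeA (-3.30), all values at low counts. Of the copy shares, 716 values moved by less than the spread between mice and 4 by more. Depth limits the copies where a library has few counts, and shares there say only that the copy was at or near the floor. Reads with more than 1 place are not in these counts, so that no sum of a pair is its full level.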
